A study of Rattus norvegicus with 12 samples.

Results

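The genes described here encode the nuclear part of the oxidative phosphorylation machinery, the 5 complexes of the inner mitochondrial membrane that turn the energy of nutrients into ATP. Members were taken by symbol from the count table: the Nduf, Sdh, Uqcr, Cox and Atp5 series of names, without copies that carry a suffix. Of 30045 symbols in the table, 83 matched and 1 copy (Cox6c-ps1) was left out, so the set has 82 members. The filter on low counts passed 77 of them, and the other 5 are described at the end. By complex, 35 members belong to complex I, 4 to II, 8 to III, 16 to IV and 15 to V, and 4 carry a matching name without being subunits.

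Lung RNA of 12 male Fischer rats (F344), 1 piece of lung from each, was sequenced. The rats were aged 3 months when bought and housed 3 to a cage. The 6 control rats breathed air (concentration 0) in whole-body chambers. The other 6 breathed crystalline nanocellulose (CNC), rod-like crystals made from plant cellulose, at 20 mg/m3 for 6 hours a day and 5 days a week over 14 exposure days. Lungs were collected 1 day after the last exposure, and the rats carried no genetic change that the labels name.

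Complex I (NADH dehydrogenase) and complex II (succinate dehydrogenase) feed electrons to ubiquinone. Complex III (cytochrome bc1) passes them to cytochrome c, and complex IV (cytochrome c oxidase) hands them to oxygen. Complexes I, III and IV pump protons, and complex V (ATP synthase) lets the protons flow back to make ATP. In lung, alveolar type 2 cells, which make surfactant, are known to be rich in mitochondria. Several subunits of complex IV have a common form and a second form, found for example in heart and skeletal muscle or in lung.

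Library totals ran from 8693259 to 16603697 counts, and member genes took 0.491 to 0.540% of the counts in air rats and 0.527 to 0.559% in CNC rats. Air replicates 4 and 5 stood apart in 15 heart muscle genes (1 fell, none rose), which summed to 493 and 365 CPM (counts relative to library size, after TMM scaling) there and to 23.6 to 157 in the other 10 rats. The clock score, the first principal component of 16 circadian clock genes (8 rose and 6 fell), ran from -0.40 to 2.92 in air and from -2.53 to -0.60 in CNC. It did not overlap between the groups, so exposure and clock state cannot be told apart in this design. Type 2 cell markers (10 of 12 tested rose, none fell) summed to 24323 to 31771 CPM in air and 32599 to 39833 in CNC. Macrophage (4 of 6 rose, 1 fell) and neutrophil markers (5 of 7 rose) were at 811 to 954 and 143 to 242 CPM in air, against 1141 to 1585 and 405 to 667 in CNC. Type 1 cell (5 of 8 fell), endothelial (10 of 10 fell) and erythroid markers (5 of 5 fell) went the other way, for example from 5829 to 6769 CPM in air to 4886 to 5442 in CNC for endothelial genes. Ciliated cell markers (none of 7 called) and lymphocyte markers (1 of 9 fell) overlapped between the groups. These marker counts are read beside the 13.2% of all tested genes called higher and the 11.4% called lower. Adipocyte markers, with 1 of 4 higher and 1 lower, summed to 99.7 to 131 CPM in air and 75.7 to 92.1 in CNC. Most of that sum was Lipe, with means of 113 CPM in air and 77.8 in CNC, where the sum had means of 118 and 82.6. Cidea rose 1.91-fold, and the adipocyte sum is not read as a shift in adipocytes. In a piece of whole lung, fewer cells of a type and less RNA per cell cannot be told apart, and the part of these shifts in the values that follow was not tested.

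The promoters of members show which letters known regulators of this machinery could read, and they are given for called and uncalled members alike. NRF1, ETS factors such as GABP, YY1 and CREB are textbook regulators of nuclear genes for mitochondrial proteins. RefSeq promoters (build GRCr8, from 250 bases before to 50 after the start, 300 in all) were found for 72 of 82 members. Members with no matched entry included Ndufa8, Ndufb9, Uqcr11, Uqcrb, Cox4i2, Cox6a1, Cox6c, Atp5sl and Atp5h. Only members named by the rule under processing and holding a match in the 150 bases before the start were picked, with Cox5a added. The stretches shown are therefore no measure of how often members hold a motif. Members called higher or lower in CNC come first, then Sdha and Cox8a, which were not called. The 150 bases are shown 5′ to 3′ on the gene's strand, with motif matches in capitals. They lie at chr8:66818134-66818283 (+) for Cox5a, chr9:46417687-46417836 (+) for Cox5b, chr10:38089979-38090128 (-) for Uqcrq, chr4:53971236-53971385 (-) for Ndufa5, chr4:69334157-69334306 (+) for Ndufb2, chr7:30658166-30658315 (+) for Ndufa12, chr1:30764403-30764552 (+) for Sdha and chr1:213833624-213833773 (-) for Cox8a.
Cox5a: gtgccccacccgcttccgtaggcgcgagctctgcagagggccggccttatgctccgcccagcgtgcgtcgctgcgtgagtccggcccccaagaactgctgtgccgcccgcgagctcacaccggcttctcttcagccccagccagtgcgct
Cox5b: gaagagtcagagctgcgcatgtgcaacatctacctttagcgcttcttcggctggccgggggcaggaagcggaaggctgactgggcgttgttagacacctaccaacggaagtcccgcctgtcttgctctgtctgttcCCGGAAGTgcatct
Uqcrq: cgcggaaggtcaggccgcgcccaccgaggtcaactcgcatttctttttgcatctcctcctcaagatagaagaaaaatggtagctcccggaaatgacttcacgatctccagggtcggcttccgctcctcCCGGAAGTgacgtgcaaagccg
Ndufa5: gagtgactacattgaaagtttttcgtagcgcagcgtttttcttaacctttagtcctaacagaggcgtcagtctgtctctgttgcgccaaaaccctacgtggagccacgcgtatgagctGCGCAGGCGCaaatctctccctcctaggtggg
Ndufb2: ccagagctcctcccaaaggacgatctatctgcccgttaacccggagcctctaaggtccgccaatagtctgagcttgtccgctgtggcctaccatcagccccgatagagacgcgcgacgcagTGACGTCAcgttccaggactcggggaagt
Ndufa12: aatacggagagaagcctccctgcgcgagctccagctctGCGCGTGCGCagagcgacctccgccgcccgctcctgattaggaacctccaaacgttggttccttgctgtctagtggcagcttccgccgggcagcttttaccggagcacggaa
Sdha: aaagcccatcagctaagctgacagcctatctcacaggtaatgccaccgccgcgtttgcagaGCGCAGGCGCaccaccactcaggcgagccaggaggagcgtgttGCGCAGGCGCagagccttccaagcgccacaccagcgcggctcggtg
Cox8a: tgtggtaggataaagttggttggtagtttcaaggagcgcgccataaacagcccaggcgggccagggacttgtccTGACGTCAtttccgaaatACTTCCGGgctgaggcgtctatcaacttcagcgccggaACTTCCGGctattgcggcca

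The capitals mark NRF1 (GCGCA, any base, then GCGC) in Ndufa5, Ndufa12 and Sdha, ETS (CCGGAAGT) in Uqcrq, Cox5b and Cox8a, and CRE (TGACGTCA) in Ndufb2 and Cox8a. Both strands were searched, so a match may be written as its reverse complement. Cox5a, the member with the smallest adjusted p, held none of the 4 motifs in the stretch shown. Over the 300-base windows, 14 of 72 members (19.4%) held NRF1, 7 (9.72%) ETS, 10 (13.9%) YY1 (AAGATGGCG) and 4 (5.56%) CRE. Among all 33469 promoters of the table the shares were 4.25, 3.81, 1.73 and 1.83% in that order. Among the promoters of 11064 tested genes they were 9.19, 7.58, 3.47 and 2.96%. At least 1 of the 4 motifs was present in 44.4% of members and 20.7% of tested genes. Of the 26 matched members called higher, 4 held NRF1, 3 ETS, 4 YY1 and 2 CRE. Of the 40 not called, 8, 4, 5 and 2 did. A match is a run of letters, not a measured binding site, and none of these shares was tested.

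After CNC, 29 of the 77 tested members rose and 2 fell, Ndufa12 and Cox4i2, while 46 did not pass the test (edgeR quasi-likelihood test, Benjamini-Hochberg adjusted over 15019 genes, threshold 0.05). Over all tested genes 24.6% were called, 13.2% higher and 11.4% lower. The changes were small: the median log2 fold change of the 77 was 0.11, with a range from -0.69 to 0.36, beside a median of -0.0026 over all tested genes. The lowest value was that of Cox6a2, with 0 to 6.34 CPM in air and a standard error of 0.67. It was 0.82 without air replicates 4 and 5. Estimates lay above 0 for 68 members and below 0 for 9, where 7417 of all 15019 tested genes lay above 0. In 4 members (Ndufa9, Uqcrfs1, Cox5a and Cox7a2l2) every CNC rat was above every air rat, and in none was every CNC rat below. Over all tested genes 6.82% separated upward and 4.7% downward.

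**Figure D1:**
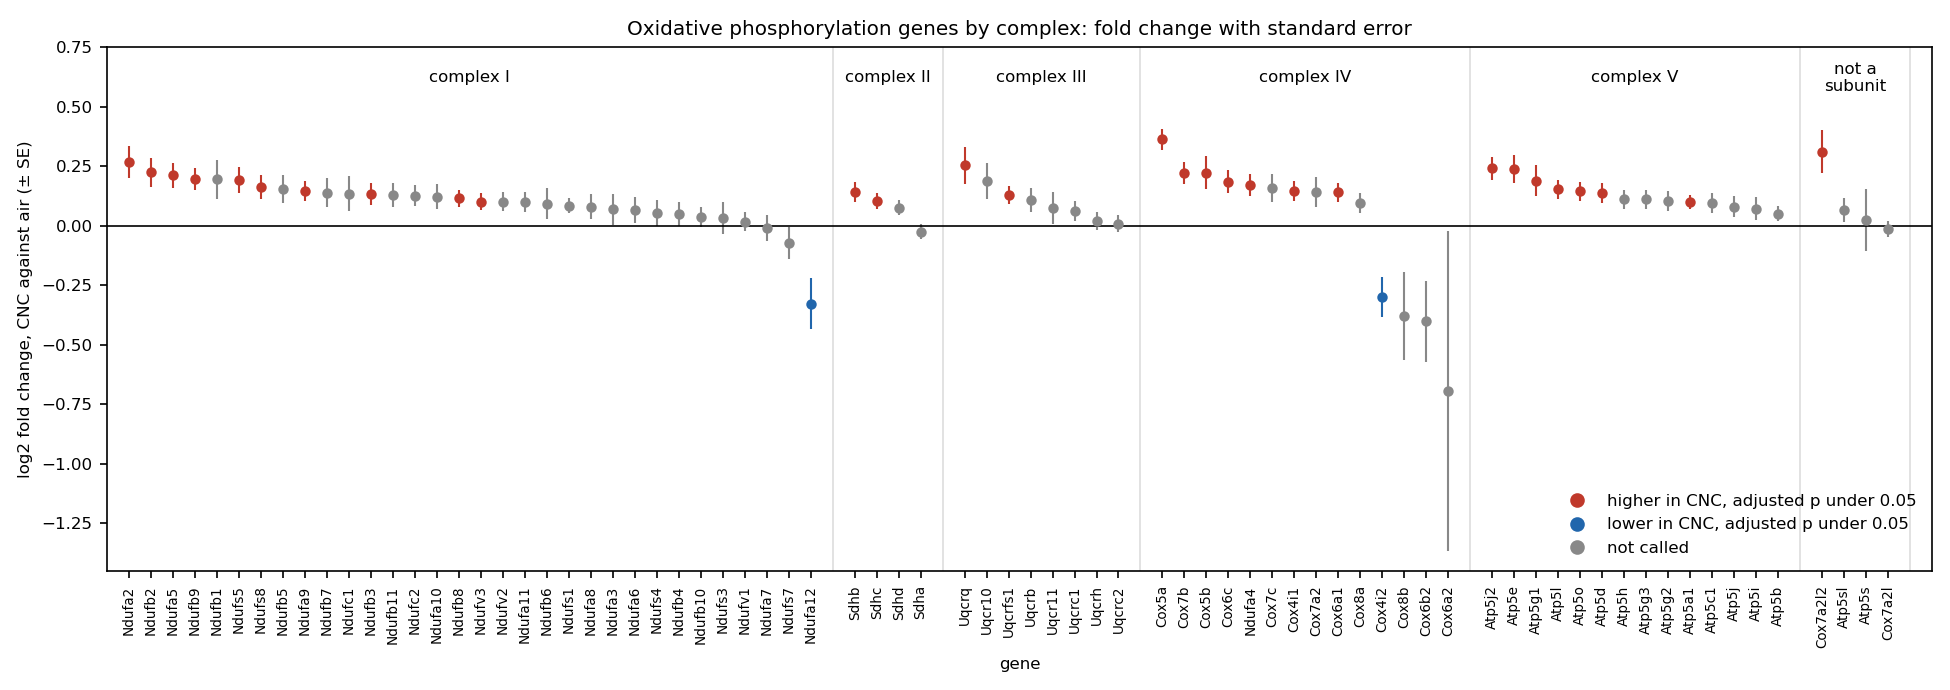
Log2 fold change, CNC against air, of the tested members reported singly (points, with bars of 1 standard error) by complex, red where called higher, blue where called lower and grey where not called. In complex V every tested member has a value above 0, as in complex III (there 6 of 8 with library size alone), while complex IV holds both the highest value (Cox5a, 0.36) and the lowest (Cox6a2, -0.69, with a wide error).

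An unadjusted p under 0.05 was found for 50 of the 77, the 31 called members included, and for 5365 of all 15019 tested genes. The median standard error of a member's log2 fold change was 0.047, and a member that missed the threshold is not shown to be the same in both groups. Without air replicates 4 and 5 there were 21 calls higher and 1 lower, and Cox4i2, Cox5b, Cox6a1, Cox7a2l2, Uqcrq, Sdhc, Atp5d, Atp5g1, Ndufb3, Ndufb8 and Ndufv3 lost theirs. That fit called 1844 of 15197 tested genes higher (12.1%) and 1748 lower. CNC replicates 3 and 6 had 148 and 75 counts of the untested member Atp5f1. Without them there were 19 and 1, and Cox4i1, Cox5b, Uqcrq, Sdhb, Sdhc, Atp5d, Atp5g1, Atp5o, Ndufa12, Ndufb3 and Ndufv3 lost theirs. Of 15202 tested genes, 1823 (12%) were called higher there and 1685 lower. A fit with fewer rats can lose a call for that reason alone. A call lost with 2 rats left out, or below with 1 rat left out, is therefore not shown to rest on those rats. With library size alone as the scaling there were 20 and 2, and Ndufa9, Ndufb3, Ndufb8, Ndufv3, Sdhb, Sdhc, Atp5a1, Atp5d and Atp5g1 lost theirs. That scaling called 1683 of 15019 tested genes higher (11.2%) and 2151 lower. With the clock score as a covariate, 1 member (Cox5a) was called higher and none lower. There the median of the 77 was 0.06 with 51 above 0, and their standard errors grew by a median factor of 2.2. That fit also left 383 of all tested genes called higher and 204 lower.

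Rats of the same group also differed among themselves. The median deviation of the 77 members from the mean of the air rats, in log2 CPM, ran from -0.066 (replicate 1) to 0.091 (replicate 3) in air and from 0.072 (replicate 5) to 0.18 (replicate 4) in CNC. Air replicate 3 and air replicate 4, at 0.045, were the high controls, and air replicate 3 lay above CNC replicates 5 and 6. Among CNC rats the median deviation ran from 0.0079 to 0.15 in complex III and from 0.089 to 0.23 in complex IV. Air replicate 3 was the air rat that reached into the CNC range for Ndufa2, Ndufb2, Sdhc, Uqcrq, Cox7b, Atp5j2, Atp5e and Atp5l. For other called members another air rat did so: replicate 4 for Sdhb, 5 for Ndufb9 and 6 for Ndufa5 and Cox5b. Without air replicate 3, 36 members were called higher and 1 lower, beside 13.2% of all tested genes called higher. That is the highest count among the fits with 1 rat left out (21 to 36), and leaving out the highest control raises most estimates by itself. Members rose and fell together from rat to rat: with each group centred on its own mean, a member's correlation with the mean of the other members had a median of 0.56 over 12 rats, and 49 of 77 were above 0.5. Over other tested genes the correlation with the members' mean had a median of 0.011, and 8.99% were above 0.5. Genes measured in the same rat share its library and depth, and the values are a description. The lowest correlations were those of Cox6b2 (-0.41), Atp5s (-0.29), Cox8b (-0.10) and Ndufa12 (-0.032).

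**Figure D2:**
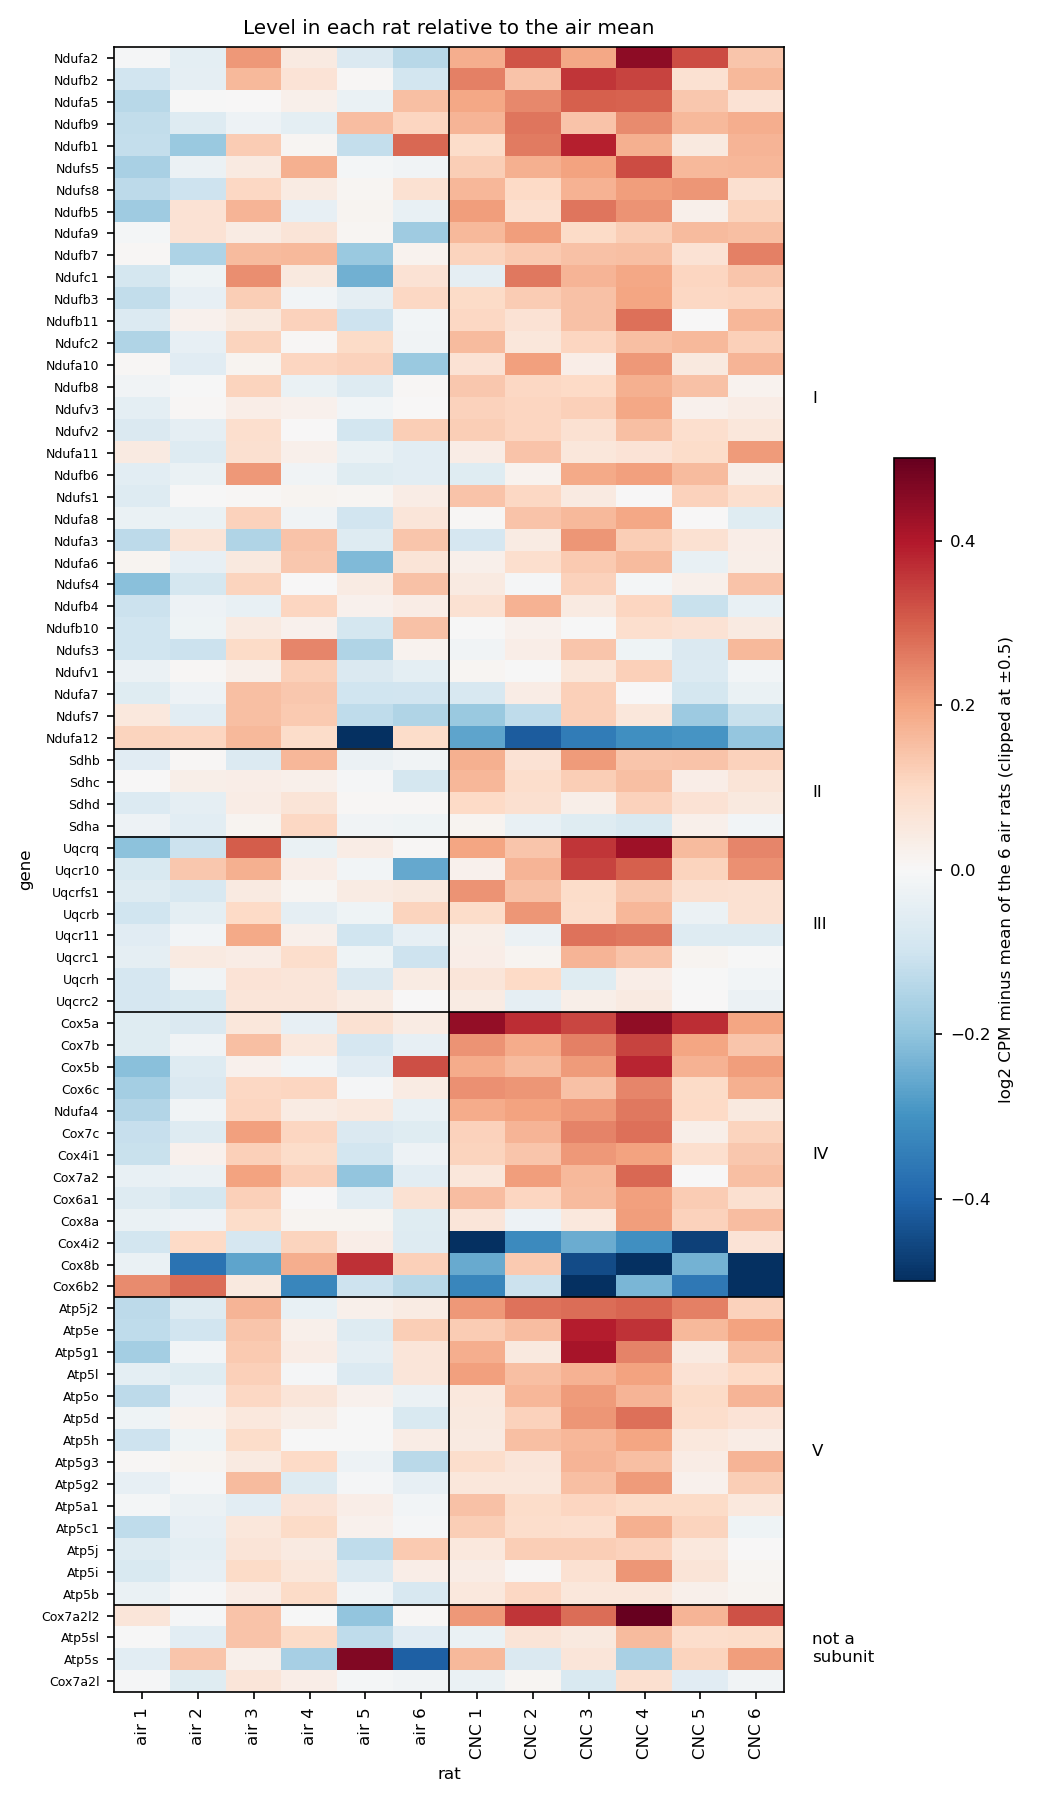
Level of tested members reported singly, without Cox6a2 (vertical axis, grouped by complex) in each of the 12 rats (horizontal axis), as log2 CPM minus the mean of the 6 air rats, with colours clipped at 0.5 in either direction. CNC replicates 3 and 4 are the reddest columns, and air replicate 3 is redder than the other air columns.

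In complex I, 10 of 33 tested members rose, 1 fell and 22 were not called, with a median log2 fold change of 0.10 and 30 values above 0 (29 with library size alone). The 26 accessory subunits among the 33, which surround and stabilise the catalytic core, held 9 of the 10 rises and the fall (median 0.12). The share called higher over all tested genes was 13.2%. Ndufa2, a small accessory subunit of the NADH-oxidising end of the matrix arm, ranged from 20.1 to 25.7 CPM in air (median 21.7) and from 24.3 to 30.1 in CNC (median 26.4). Air replicate 3 alone reached into the CNC range, and Ndufa2 rose 1.2-fold (log2 fold change 0.27 ± 0.07 SE, edgeR adjusted p = 0.0083). Ndufb2, an accessory subunit of the membrane arm, was at 27.2 to 32.5 CPM in air (median 28.7) and at 30.7 to 37.2 in CNC (median 33.5). It rose 1.17-fold (edgeR adjusted p = 0.013), with CNC replicates 2 and 5 inside the range of the air rats. Ndufa5, an accessory subunit of the matrix arm, had 26.8 to 32.7 CPM in air (median 29.5) and 31 to 36.3 in CNC (median 34.3), with overlap, and rose 1.16-fold (edgeR adjusted p = 0.0087).

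Ndufb9, a further accessory subunit of the membrane arm, was at 47.0 to 56.9 CPM in air (median 49.9) and at 56.5 to 61.5 in CNC (median 57.8). Air replicate 5 and CNC replicate 3 were the rats that crossed, and Ndufb9 rose 1.15-fold (log2 fold change 0.20 ± 0.05 SE, edgeR adjusted p = 0.0064). Ndufa9, an accessory subunit near the ubiquinone site, was at 41.1 to 48.9 CPM in air (median 47.2) and at 49.7 to 53.7 in CNC (median 51.7). Its groups did not overlap, and it rose 1.1-fold (edgeR adjusted p = 0.020), a call lost with library size alone as the scaling. Ndufs5, an accessory subunit despite its letter, rose with a log2 fold change of 0.19 (edgeR adjusted p = 0.017). The accessory subunits Ndufb3, Ndufb8 and Ndufv3 rose by 0.13, 0.11 and 0.10 on the log2 scale (edgeR adjusted p = 0.0499, 0.032 and 0.045). Ndufb3 lost its call without any 1 of 10 rats (all but air 3 and air 6, adjusted p 0.053 to 0.11), Ndufb8 without any 1 of 8 (air 1, 2, 4 and 5 and CNC 1, 2, 4 and 5, 0.0504 to 0.077) and Ndufv3 without any 1 of 8 (air 1, 2, 5 and 6 and CNC 1 to 4, 0.062 to 0.11). Without air replicate 1, and also without air replicate 2, 6 members of complex I were called higher instead of 10. Those fits called 11.6 and 11.3% of all tested genes higher, where the main fit called 13.2%.

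Ndufa12, an accessory subunit of the matrix arm that joins late in assembly, was the member of complex I that fell. It was at 6.56 to 10.8 CPM in air (median 10.4) and at 7.26 to 8.48 in CNC (median 7.86). The 5 air rats other than replicate 5 lay at 10.3 to 10.8 CPM, above every CNC rat, while air replicate 5 lay at 6.56, below every CNC rat. Its log2 fold change was -0.33 ± 0.11 SE (edgeR adjusted p = 0.035), and without air replicate 5 it was -0.41 (adjusted p = 0.00067). Leaving out any 1 of air replicates 1, 2, 3, 4 and 6 or CNC replicates 1 to 5 ended the call (adjusted p 0.053 to 0.074).

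Among the 7 core subunits, which carry the flavin and the iron-sulfur clusters, 1 was called and the median log2 fold change was 0.05. That count is read beside the 13.2% of all tested genes called higher. The difference between core and accessory subunits was not tested. Ndufs8, an iron-sulfur subunit close to the ubiquinone site, rose with a log2 fold change of 0.16 ± 0.05 SE (edgeR adjusted p = 0.023). Its call was lost without air replicate 1, air replicate 2 or CNC replicate 4 (adjusted p 0.052 to 0.058). None of the others passed. Ndufs1, the largest iron-sulfur subunit, had a log2 fold change of 0.08 ± 0.03 SE (edgeR adjusted p = 0.070), and Ndufv2, an iron-sulfur subunit of the NADH-binding end, had 0.10 ± 0.04 SE (0.077). Ndufs3, a core subunit of the matrix arm, had 0.03 ± 0.07 SE (0.78). Ndufv1, which binds NADH and flavin, had 0.02 ± 0.04 SE (0.81), below 0 when library size alone set the scaling. Ndufs7, the last iron-sulfur carrier before ubiquinone, had -0.07 ± 0.07 SE (0.48).

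In complex II, which is also an enzyme of the citric acid cycle, 2 of 4 subunits rose, beside 13.2% of all tested genes. With 4 subunits, that count is a small base. Sdha, the flavoprotein that oxidises succinate, was at 177 to 197 CPM in air (median 181.0) and at 174 to 187 in CNC (median 180.1). These ranges lay on each other, and the log2 fold change was -0.03 ± 0.03 SE (edgeR adjusted p = 0.64). Sdhb, the iron-sulfur subunit that takes electrons from Sdha, was at 55.7 to 65.5 CPM in air (median 57.4) and at 61.4 to 67.6 in CNC (median 64.4). Air replicate 4 alone accounted for the overlap, and Sdhb rose 1.1-fold (log2 fold change 0.14 ± 0.04 SE, edgeR adjusted p = 0.022). Sdhc, a membrane anchor at the ubiquinone site, was at 67.6 to 73.6 CPM in air (median 72.6) and at 73.5 to 80.6 in CNC (median 77.3), the groups crossing at air replicate 3 and CNC replicate 5. It rose with a log2 fold change of 0.10 ± 0.03 SE (edgeR adjusted p = 0.035). Its call was lost without any 1 of air replicates 1 and 6 and CNC replicates 1 to 4 (adjusted p 0.0504 to 0.079). Sdhd, the other anchor, was at 70.7 to 77.4 CPM in air (median 74.5) and at 75.6 to 80.3 in CNC (median 78.2), with a log2 fold change of 0.07 ± 0.03 SE (edgeR adjusted p = 0.10). The difference between Sdha and Sdhb in response was not tested.

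In complex III, 2 of 8 members rose, all 8 values lay above 0 (7 with upper-quartile scaling and 6 with library size alone) and the median log2 fold change was 0.09. The 2 calls are read beside the 13.2% of all tested genes called higher. Uqcrq, a small subunit that holds cytochrome b in place, was at 23.1 to 32.8 CPM in air (median 26.3) and at 29.3 to 35.7 in CNC (median 31). The groups overlapped, and Uqcrq rose 1.19-fold (log2 fold change 0.25 ± 0.08 SE, edgeR adjusted p = 0.025). Leaving out air replicate 1, air replicate 2, CNC replicate 3 or CNC replicate 4 ended that call (adjusted p 0.052 to 0.063) and left 1 called member in the complex. Uqcrfs1, the Rieske iron-sulfur protein that moves electrons towards cytochrome c, was at 67.4 to 73.8 CPM in air (median 72.5) and at 75.2 to 83.2 in CNC (median 77.1). Its groups did not overlap, and it rose 1.09-fold (edgeR adjusted p = 0.018). The large core proteins Uqcrc1 and Uqcrc2 had log2 fold changes of 0.06 and 0.01 (edgeR adjusted p = 0.32 and 0.91).

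In complex IV, 7 of 14 tested members rose and 1 fell, with a median log2 fold change of 0.14. Of all tested genes, 13.2% were called higher and 11.4% lower. Cox5a, a nuclear subunit on the matrix side of the enzyme, was at 72.4 to 80.3 CPM in air (median 76.3) and at 87.4 to 104 in CNC (median 98.4). Every CNC rat lay above every air rat. Cox5a rose 1.29-fold, from 76.3 ± 3.46 to 97.9 ± 5.93 CPM (SD, n = 6 per group), with a log2 fold change of 0.36 ± 0.04 SE and an edgeR adjusted p of 2.6e-05. It was the member called under each of the 26 other settings tried, and with the clock score as a covariate its log2 fold change was 0.41 (adjusted p = 0.034). The clock score did not overlap between the groups, so that fit cannot separate exposure from clock state.

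**Figure D3:**
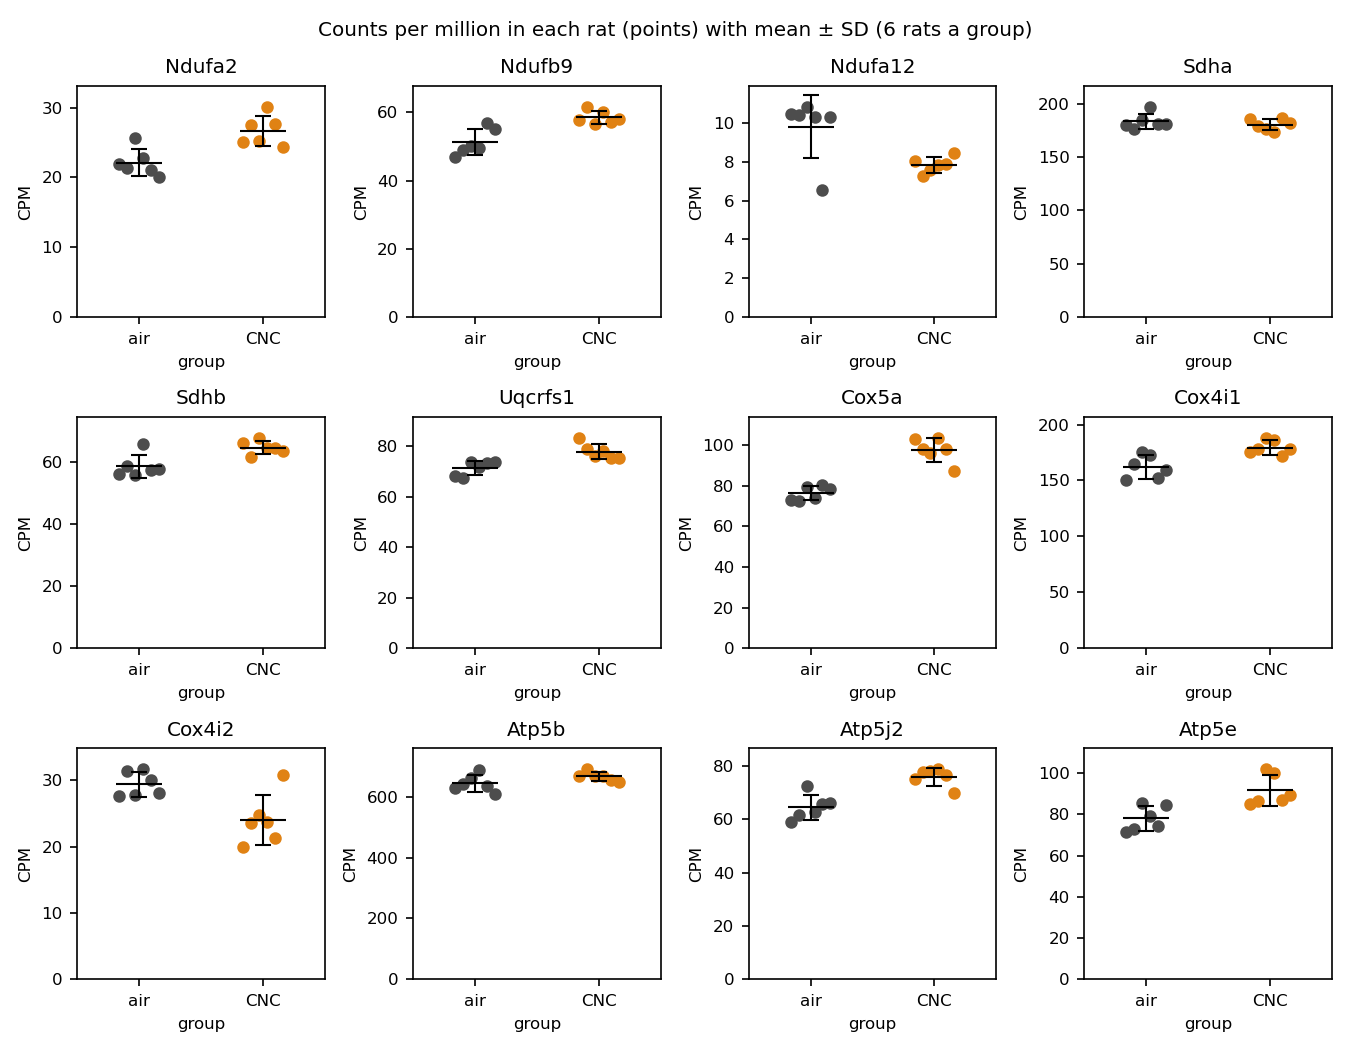
CPM in each rat (points) with the mean and SD of the 6 rats a group (bars) for 12 members, each on an axis from 0. Cox5a and Uqcrfs1 separate the groups without overlap, Sdha and Atp5b overlap widely, and air replicate 5 is the low air point for Ndufa12.

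Cox7b, a small subunit of the membrane part, was at 39.4 to 46.3 CPM in air (median 40.9) and at 45.9 to 52.8 in CNC (median 48.3). Overlap was slight, and it rose with a log2 fold change of 0.22 ± 0.05 SE (edgeR adjusted p = 0.0025). Cox6c, another membrane subunit, was at 58.9 to 71.3 CPM in air (median 67.1) and at 70.8 to 78.5 in CNC (median 76.0), also with slight overlap, and it rose by 0.18 ± 0.05 SE on the log2 scale (edgeR adjusted p = 0.0097). Cox5b, the zinc-binding subunit, was at 41.4 to 59.7 CPM in air (median 46.6) and at 53.3 to 62.2 in CNC (median 54.8). It rose with a log2 fold change of 0.22 ± 0.07 SE (edgeR adjusted p = 0.028), a call lost without air replicate 1, 2 or 5 or CNC replicate 4 (adjusted p 0.051 to 0.069). Cox6a1, the common form of its subunit, rose by 0.14 ± 0.04 SE on the log2 scale (edgeR adjusted p = 0.016). Cox7a2 and Cox8a, the common forms of theirs, had 0.14 ± 0.06 SE (edgeR adjusted p = 0.13) and 0.09 ± 0.04 SE (0.11).

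Some subunits of complex IV have alternative forms, described here beside the common ones. Cox4i1 is the common form of the largest nuclear subunit, and Cox4i2 is a form enriched in lung and known from pericytes and vascular smooth muscle. Cox4i1 was at 150.1 to 176 CPM in air (median 162) and at 172 to 188 in CNC (median 178), with overlap, and it rose by 0.15 ± 0.04 SE on the log2 scale (edgeR adjusted p = 0.019). Cox4i2 was at 27.6 to 31.7 CPM in air (median 29.0) and at 19.9 to 30.8 in CNC (median 23.7). CNC replicate 6, at 30.8 CPM, lay within the range of the air rats. Cox4i2 fell 1.23-fold, from 29.4 ± 1.88 to 24.0 ± 3.76 CPM (SD, n = 6 per group), with a log2 fold change of -0.30 ± 0.08 SE (edgeR adjusted p = 0.017). Without CNC replicate 6 the log2 fold change was -0.37 (adjusted p = 0.00094), and without air replicates 4 and 5 together the call was lost (adjusted p = 0.059).

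Ndufa4 carries a complex I name but is counted as a subunit of complex IV, and Ndufa4l2 is its hypoxia-inducible relative, also known from pericytes. Ndufa4l2 lies outside the member rule. Ndufa4 was at 63.3 to 75.4 CPM in air (median 70.7) and at 72.5 to 84.0 in CNC (median 80.1), with overlap, and it rose with a log2 fold change of 0.17 ± 0.05 SE (edgeR adjusted p = 0.013). Ndufa4l2 was at 16 to 23.8 CPM in air (median 18.9) and at 12.1 to 16 in CNC (median 15). The groups touched at the edge, and it fell 1.36-fold (log2 fold change -0.44 ± 0.09 SE, edgeR adjusted p = 0.0028).

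Within each rat, the log2 ratio of Cox4i2 to Cox4i1 was -2.46 ± 0.11 in air and -2.91 ± 0.20 in CNC (SD, n = 6 per group), a difference of -0.45 (2-sided exact permutation test over 924 splits, p = 0.0043, adjusted p = 0.0087 over 4 pairs). CNC replicate 6, at -2.52, lay among the air rats, which ran from -2.66 to -2.33. The log2 ratio of Ndufa4l2 to Ndufa4 was -1.83 ± 0.27 in air and -2.42 ± 0.17 in CNC, a difference of -0.59 with no overlap (exact permutation p = 0.0022, the smallest these splits can give, adjusted p = 0.0087). A ratio shows unequal change of its genes and not which of them moved. Mural cell genes, a list of 11 chosen after the data had been seen, fell in 9 cases, beside 11.4% of all tested genes. They summed to 891 to 1173 CPM in air and 764 to 921 in CNC. Their median log2 fold change was -0.34, and their part in the values of Cox4i2 and Ndufa4l2 was not tested.

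**Figure D4:**
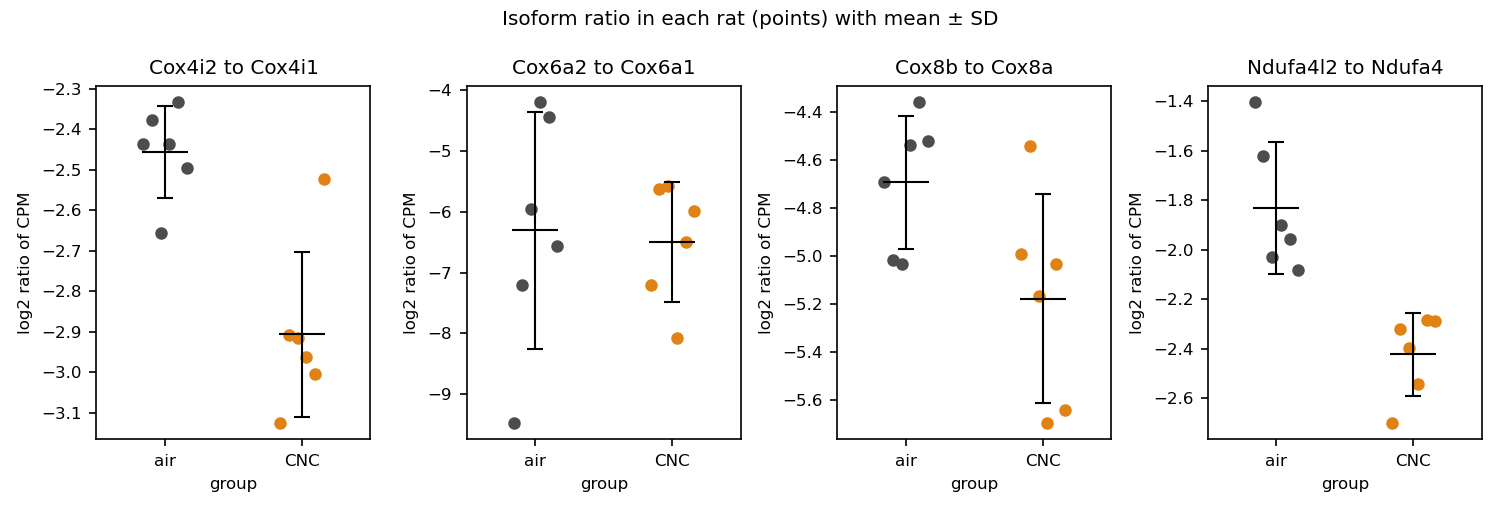
Log2 ratio of the CPM of an alternative form to its common form in each rat (points) with mean and SD (bars), for 4 pairs, air beside CNC. The Ndufa4l2 to Ndufa4 ratio separates the groups, the Cox4i2 to Cox4i1 ratio does so except for CNC replicate 6, and the Cox6a2 to Cox6a1 ratio spreads widely in both groups.

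The other pairs concern forms known from heart and skeletal muscle. Cox8b was at 2.40 to 3.99 CPM in air (median 3.19) and at 1.72 to 3.39 in CNC (median 2.44), with a log2 fold change of -0.38 ± 0.18 SE (edgeR adjusted p = 0.15). Its ratio to Cox8a differed by -0.49 on the log2 scale (exact permutation p = 0.052, adjusted p = 0.069), and that adjusted p passed without air replicate 2 or 3 (0.046 each) or CNC replicate 2 (0.023). Cox6a2 was at 0, 0.599, 1.92, 6.34, 5.13 and 1.16 CPM in air replicates 1 to 6 and at 0.732, 2.45, 2.63, 0.343, 1.27 and 1.82 in CNC replicates 1 to 6. Air replicates 4 and 5, the highest in Cox6a2, were also the rats with the highest heart muscle sums, at 493 and 365 CPM, and air replicate 1, at 0, had 24.4 CPM. The log2 fold change of Cox6a2 was -0.69 ± 0.67 SE (edgeR adjusted p = 0.50), and it was 0.82 without these replicates 4 and 5 (adjusted p = 0.40). Its ratio to Cox6a1 differed by -0.19 (exact permutation p = 0.85, adjusted p = 0.85). Cox6b2, a testis form, had a log2 fold change of -0.40 ± 0.17 SE (edgeR adjusted p = 0.12).

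In complex V, 7 of 14 tested members rose, none fell and all 14 values lay above 0 (median log2 fold change 0.11). Beside these counts, 13.2% of all tested genes were called higher and 11.4% lower. Atp5j2, a subunit of the membrane part, was at 58.8 to 72.4 CPM in air (median 64.1) and at 69.7 to 78.9 in CNC (median 77.2). It rose 1.18-fold (log2 fold change 0.24 ± 0.05 SE, edgeR adjusted p = 0.0016), with a narrow overlap. Atp5e, the epsilon subunit of the rotating stalk, was at 71.2 to 85.7 CPM in air (median 76.8) and at 85.0 to 102 in CNC (median 88.2), crossing at air replicate 3 and CNC replicate 1. It rose with a log2 fold change of 0.24 ± 0.06 SE (edgeR adjusted p = 0.0080). Atp5l, another membrane subunit, was at 75.9 to 86.4 CPM in air (median 78.0) and at 83.7 to 91.6 in CNC (median 88.9), and it rose by 0.15 ± 0.04 SE on the log2 scale (edgeR adjusted p = 0.0098).

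Atp5g1 is 1 of the genes for the c subunit, which forms the proton-driven ring. It was at 27.7 to 34.2 CPM in air (median 31.4) and at 32.2 to 41.5 in CNC (median 35), and it rose with a log2 fold change of 0.19 ± 0.07 SE (edgeR adjusted p = 0.048). That call was lost without any 1 of 9 rats, air 1, 2, 4, 5 and 6 and CNC 1, 3, 4 and 6 (adjusted p 0.053 to 0.10). Atp5g2 and Atp5g3, whose genes encode the same mature protein, had log2 fold changes of 0.10 and 0.11 (edgeR adjusted p = 0.097 and 0.055). The stalk subunits Atp5o and Atp5d rose by 0.14 each on the log2 scale (edgeR adjusted p = 0.018 and 0.024), the latter losing its call without air 6, CNC 3 or CNC 4 (0.052 to 0.056). Atp5a1, the alpha subunit of the catalytic head, rose by 0.10 on the log2 scale (edgeR adjusted p = 0.023, and 0.051 without air 2). Atp5b, the catalytic beta subunit, was at 610.4 to 689 CPM in air (median 640.0) and at 650.4 to 692 in CNC (median 669), overlapping widely, with a log2 fold change of 0.05 ± 0.03 SE (edgeR adjusted p = 0.31).

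Atpif1, which lies outside the member rule and encodes the inhibitor of the ATP synthase, was at 44.5 to 51.0 CPM in air (median 46.7) and at 60.9 to 63.1 in CNC (median 61.6). Its groups did not overlap. It rose 1.31-fold (log2 fold change 0.39 ± 0.03 SE, edgeR adjusted p = 2.2e-06).

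Of the 4 members that are not subunits, 1 was called, beside 24.6% of all tested genes called in either direction. Cox7a2l2, a copy of the supercomplex factor Cox7a2l, was at 4.94 to 6.25 CPM in air (median 5.67) and at 6.37 to 8.11 in CNC (median 6.97), without overlap. It rose 1.24-fold (log2 fold change 0.31 ± 0.09 SE, edgeR adjusted p = 0.018), but reads of near-identical copies may be split by the counting, so its value is uncertain. Cox7a2l itself had a log2 fold change of -0.02 ± 0.03 SE (edgeR adjusted p = 0.79). Atp5s and Atp5sl had log2 fold changes of 0.02 and 0.07 (edgeR adjusted p = 0.93 and 0.40).

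Neighbours of the members in the pathway are given as lists, each read beside the 13.2% of all tested genes called higher. Among 6 other respiratory chain genes, 2 rose and 1 fell. Ndufab1, the mitochondrial acyl carrier protein bound to complex I, rose by 0.20 ± 0.05 SE on the log2 scale (edgeR adjusted p = 0.0072), while cytochrome c (Cycs) and cytochrome c1 (Cyc1) had 0.16 ± 0.08 SE (0.14) and 0.05 ± 0.05 SE (0.56). Of 44 assembly factors, 4 rose and none fell (median 0.05), among them Coa3, a complex IV factor, by 0.30 (edgeR adjusted p = 0.00064), and the copper chaperone Cox17 by 0.25 (0.0064). Of 17 genes of the citric acid cycle and pyruvate dehydrogenase, 6 rose and none fell (median 0.04). Suclg1, a subunit of succinyl-CoA ligase, rose 1.25-fold (edgeR adjusted p = 0.00022), and Pdhx, a structural part of pyruvate dehydrogenase, rose 1.33-fold (0.00034). Of 69 mitochondrial ribosomal protein genes, 6 rose and none fell, with a median of 0.09. With the clock score as a covariate, no assembly factor, mitochondrial ribosomal protein, regulator or carrier was called and 1 gene of the citric acid cycle list was.

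Regulators of mitochondrial genes were mostly not called, with 2 of 12 higher and none lower. The nuclear receptor Esrra rose by 0.27 ± 0.05 SE on the log2 scale (edgeR adjusted p = 0.00046), and Gabpb1, a partner of the ETS factor GABP, rose by 0.25 ± 0.04 SE (0.00066). Gabpa, the DNA-binding part of GABP, had -0.07 (edgeR adjusted p = 0.25), Nrf1 had -0.04 (0.55), and Tfam, which packs and transcribes mitochondrial DNA, had 0.05 (0.59). The coactivators Ppargc1a and Ppargc1b had -0.12 (0.21) and 0.42 (0.063). Of 7 carriers and porins 2 rose, including the ADP/ATP carrier Slc25a5 by 0.23 on the log2 scale (edgeR adjusted p = 0.00027).

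Of 18 glycolysis genes 12 rose and none fell (2 fell with library size alone as the scaling and also without CNC replicates 3 and 6), with a median log2 fold change of 0.20, and with the clock score as a covariate 3 were called higher. Hexokinase 3 (Hk3), a form known from myeloid cells, rose 2.32-fold from 17.8 ± 3.38 to 41.2 ± 4.06 CPM (SD, n = 6 per group). The glucose transporter Slc2a1 rose 1.65-fold and enolase Eno1 1.25-fold (edgeR adjusted p = 2.2e-06 and 2.7e-06). Cytosolic ribosomal protein genes, which take no part in respiration and were added after the data had been seen, rose in 37 of 73 cases with none lower (median 0.14, and no call with the clock score as a covariate). Without CNC replicates 3 and 6 they rose in 23 cases, and with library size alone as the scaling in 26. Their median deviation by rat ran from -0.070 to 0.074 in air and from 0.076 to 0.22 in CNC, and CNC replicates 3 and 4 were the highest, as for the members. What the members and this list share was not tested.

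**Figure D5:**
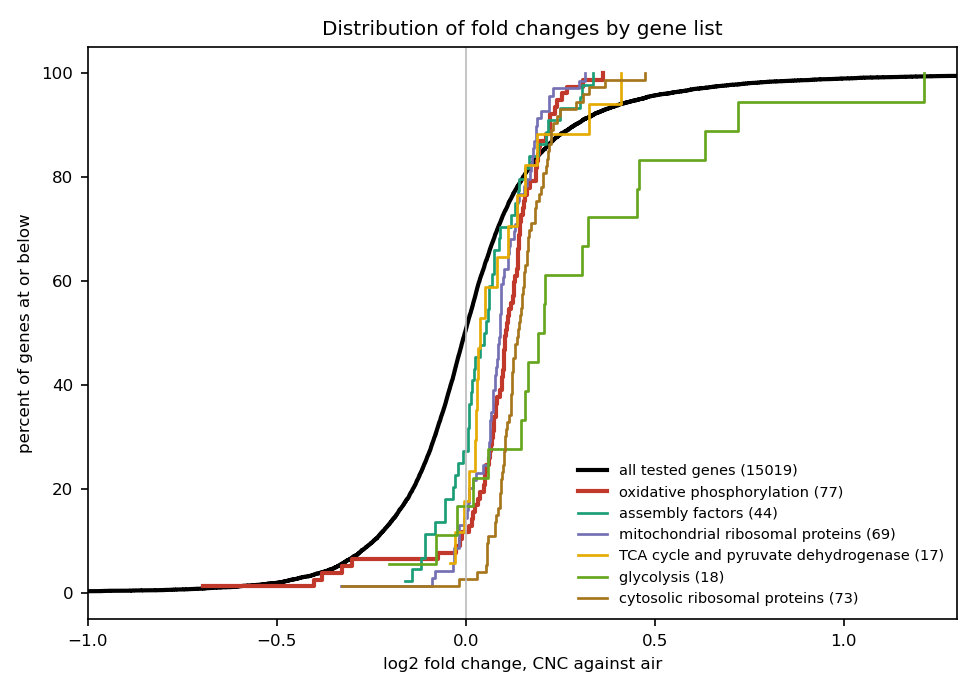
Cumulative share of genes (percent, vertical axis) at or below each log2 fold change, CNC against air (horizontal axis), for the members, 5 other gene lists and all 15019 tested genes. The members' curve lies to the right of that of all tested genes (medians 0.11 and -0.0026), with the medians of the mitochondrial and cytosolic ribosomal lists at 0.09 and 0.14 and that of glycolysis at 0.20.

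The 5 members with too few counts to test were Ndufa1, Ndufs6, Atp5f1, Cox7b2 and Cox8c. Ndufa1 had 0 to 2 counts per library and Ndufs6 had 0 to 3, although both encode complex I subunits that respiring cells need. Atp5f1, subunit b of the ATP synthase, had 0 to 4 counts in 10 libraries, 148 in CNC replicate 3 and 75 in CNC replicate 6. No level is read from these 3 symbols. Cox7b2 and Cox8c, forms known from testis, had 0 counts in every library, which does not show that their RNA was absent. Cox6b1, Cox7a1 and the genes encoded in mitochondrial DNA were not analysed here.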

How the data were processed

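Each rat's group is its labelled treatment. Replicate numbers follow accession order and only name a rat. Libraries kept the strand and were made from polyadenylated RNA, per the labels' protocols. Tools listed in the submitters' processing notes are HTSeq 0.11.2, SAMtools 1.8, Cufflinks, HISAT2 2.1.0, Trimmomatic 0.35 and bcl2fastq 2.19. The authors deposited raw counts per gene symbol, with Rnor6 in the table's name. For neither the annotation nor the counting's strand setting is a statement given in the sources used here, and overlapping, antisense and near-identical genes are therefore uncertain.

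The counts were fitted with edgeR 4.0.16 (R 4.3.3): filterByExpr (minimum count 10, minimum total 15), TMM scaling, glmQLFit and glmQLFTest, and Benjamini-Hochberg adjustment over 15019 genes with a threshold of 0.05. The common biological coefficient of variation was 8.05%. A standard error is the log2 fold change divided by the square root of F. CPM are TMM-scaled, and ratios used a prior count of 2. The fit was tested on simulated data.

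Members, lists and settings were chosen with earlier results of these data known. The mural cell and cytosolic ribosomal lists were added after seeing the data. The rule names up to 4 members of largest fold change called in each direction per complex, all Sdh genes, the complex I core, the isoform pairs, up to 3 called genes of each other list and a fixed panel of regulators and carriers. Other members named beside these were chosen after their values were seen. Alternatives used DESeq2 1.42.0, limma 3.58.1 and sva 3.50.0. The values of 1 member are counted in the totals and not reported here. Figures were drawn with matplotlib 3.10.9.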

Additional observations from a re-analysis of the deposited data

Results flagged for a closer look

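In a group of 6 rats, a value was singled out where its gap to the nearest other rat exceeded the share of the group's whole range that Dixon's 95% critical value allows. Chance does this in about 1 of 20 groups, and 11 of the 222 groups tested did so (each group for every tested member reported singly, the named genes outside the member rule and the 4 isoform ratios). Ndufa12 in air replicate 5 was at 6.56 CPM, with the other air rats at 10.3 to 10.8 (gap share 0.879). Sdhb in air replicate 4 was at 65.5 CPM, with the others at 55.7 to 58.7 (0.699). Sdhc in air replicate 6 was at 67.6 CPM, with the others at 71.6 to 73.6 (0.67). Cox5b in CNC replicate 4 was at 62.2 CPM, with the others at 53.3 to 55.3 (0.781). Ndufa9 in air replicate 6 was at 41.1 CPM, with the others at 46.2 to 48.9 (0.657). Ndufb6, an accessory subunit of the membrane arm of complex I, was at 22.7 CPM in air replicate 3, with the others at 18.7 to 19.2 (0.866). Ndufs5 in CNC replicate 4 was at 39.9 CPM, with the others at 34.7 to 36.6 (0.628). Atp5g2 in air replicate 3 was at 119 CPM, with the others at 102 to 107 (0.749). Atp5i, a membrane subunit of the ATP synthase, was at 43.2 CPM in CNC replicate 4, with the others at 37.2 to 39.0 (0.692). Cox17, a copper chaperone outside the member rule, was at 57.8 CPM in CNC replicate 4, with the others at 48.7 to 52.0 (0.639). The log2 ratio of Cox4i2 to Cox4i1 in CNC replicate 6 was -2.52, with the others at -3.13 to -2.91 (0.64).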

How the results depend on the processing

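Members called higher and lower, 29 and 2, were 19 and 1 without CNC replicates 3 and 6, 21 and 1 without air replicates 4 and 5, 1 and 0 with the clock covariate, and 9 and 0 at a threshold of 0.01. The share of all tested genes called higher, 13.2% in the main fit, was 12, 12.1 and 2.55% in the first 3 of these. At 0.01 that share was not counted. With other scalings, filters, tests and covariates the count higher was 20 to 37 and the count lower stayed at 2, beside 8.45 to 14.7% of all tested genes called higher. Leaving out each rat in turn gave 21 to 36 higher and 1 to 2 lower, and by complex 6 to 13 (I), 1 to 2 (II), 1 to 2 (III), 6 to 9 (IV) and 5 to 9 (V), beside 10, 2, 2, 7 and 7. These fits called 11.3 to 13.2% of all tested genes higher. Complex II gave 1 with upper-quartile scaling, no count filter, the DESeq2 Wald test, 1 surrogate variable, the heart muscle covariate or without air replicates 4 and 5. Library size alone gave 6 for complex I, 0 for II and 4 for V, shifting the median of all tested genes to -0.026. The clock covariate gave 0 for complexes I, II, III and V and 1 for IV. Without air replicates 4 and 5 complex III gave 1. Without CNC replicates 3 and 6 complexes II, III and V gave 0, 1 and 4, and at the threshold of 0.01 complexes I to V gave 3, 0, 0, 3 and 3.

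Of the 31 called members, 1 was called under all 26 other settings, 12 were lost with the clock covariate alone, and 11 were lost when some single rat was left out. Fold changes turned in direction for 12 named genes with the clock covariate: Ndufs3 (-0.23), Ndufv1 (-0.10), Cox6b2 (0.094), Cox7a2 (-0.010), Cox8a (-0.00033), Cycs (-0.052), Cyc1 (-0.064), Nrf1 (0.052), Arf5 (-0.057), Serf2 (-0.077), Poll (-0.025) and Aup1 (-0.029). Library size alone turned Ndufv1 (-0.0065) and Serf2 (-0.0076), and Ndufs3 was -0.031 without CNC replicates 3 and 6. Ndufv1 ran from -0.0060 to 0.043 and Serf2 from -0.0051 to 0.039 with single rats left out, Serf2 being -0.0019 without CNC replicate 4. Cox6a2 was 0.34 and 0.77 with limma-voom without and with quality weights, 0.58 with 1 surrogate variable, 0.77 with the heart muscle covariate (adjusted p = 0.039) and 0.82 without air replicates 4 and 5. Its ratio was 0.075 with a prior count of 0.5 and -0.82 to 0.23 with single rats left out (0.19 without air replicate 5 and 0.13 without CNC replicate 4). The other ratios ran from -0.53 to -0.41 (Cox4i2), -0.61 to -0.38 (Cox8b) and -0.64 to -0.50 (Ndufa4l2). The causes were not tested. No paired analysis was possible because the labels give no number that rats of both groups share.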

Other observations

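The 5 tested genes outside the member rule whose level followed the members' mean most closely, over 12 rats with each group centred on its own mean, were Arf5 (r = 0.92), a small GTPase of membrane traffic, Serf2 (0.91), Poll (0.91), a DNA repair polymerase, Tbca (0.90), a tubulin-folding cofactor, and Aup1 (0.89), a protein of lipid droplets and the endoplasmic reticulum. Members at the top of the same measure reached 0.90. Genes measured in the same rat share its library and depth, and this order was not tested.

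Some further members of the lists were called. Coa7, a factor of respiratory complex assembly, rose by 0.34 on the log2 scale (edgeR adjusted p = 0.039), and Cox14, a complex IV assembly factor, by 0.22 (0.020). Suclg2, the partner of Suclg1 in the GTP-forming succinyl-CoA ligase, rose by 0.16 (edgeR adjusted p = 0.00085), and the mitochondrial creatine kinase Ckmt1b by 0.26 (0.013). The mitochondrial ribosomal proteins Mrpl54, Mrpl12 and Mrpl17 rose by 0.32, 0.22 and 0.13 on the log2 scale (edgeR adjusted p = 0.0082, 0.0016 and 0.015). Coa7 was named after its value was seen.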
